A study of Mus musculus with 9 samples.

Results

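Epithelial cells hold together through adherens junctions, built on E-cadherin, and through tight junctions, built on claudins. In epithelial-mesenchymal transition (EMT) transcription factors of the ZEB, Snail and Twist families repress junction genes, and cells gain vimentin filaments and motility. In breast tumours the balance of these genes is widely used to place a tumour between an epithelial and a mesenchymal state. The genes described here are 5 junction genes (Cdh1, Epcam, Cldn3, Cldn4 and Cldn7) and 5 EMT genes (Vim, Zeb1, Zeb2, Snai2 and Twist1). They were chosen by name, and all 10 were found among the 49585 genes of the count table and were above the minimum for testing.

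The samples were 9 spontaneous breast adenocarcinomas of mice, profiled by RNA sequencing of whole flash-frozen tissue. All mice carried K14-Cre, a recombinase driven by the keratin 14 promoter of basal epithelium, and, as a Cre-dependent source of Cas9, Rosa26LSL CAS9-P2A-EGFP/+. Their Trp53 genotype was Trp53wm-R172H/fl, in which R172H replaces 1 residue of the domain of p53 that contacts DNA. What wm stands for, and in which cells R172H is present, is not in the labels. Adeno-associated virus (AAV) was given on days 0, 3 and 8, and tumours were taken when the animals met euthanasia criteria, at ages and intervals that the labels leave out. The 3 AAV-Control tumours received control virus, and the 6 AAV-∆mut-p53 tumours received virus meant to delete mutant p53. Tumours are numbered 1 to 3 and 1 to 6, in order of accession only. AAV-∆mut-p53 4 and 5 share 1 title number and may come from 1 animal, which the labels do not say. No label ties the other tumours to separate animals, so p-values measure the spread between these samples.

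Libraries held 18581545 to 30953250 counts. AAV-∆mut-p53 2 stood apart from the other tumours: 10 skeletal muscle genes summed to 43056 CPM (counts scaled to a common library size of 1000000) there and to between 31.1 and 412 CPM elsewhere. Results that rest on it are given with and without it. RNA of Trp53, the targeted gene, was 39.2 to 48.4 CPM in AAV-Control, 13.1 and 21.9 CPM in AAV-∆mut-p53 1 and 2, and 37.8 to 41.4 CPM in AAV-∆mut-p53 3 to 6. Of 19606 genes tested, 0 (0.0%) passed a false discovery rate (FDR) of 0.05 in edgeR's quasi-likelihood test, 0 passed in limma voom and 104 (0.53%) passed in DESeq2. In edgeR 1387 genes (7.07%) had an unadjusted p under 0.05, 3.82% of all genes in the higher and 3.26% in the lower direction. None of the 10 junction and EMT genes was among those that passed the FDR threshold in any of the 3 tools. DESeq2 gave no p for Zeb2. DESeq2 gave Cldn7 and limma voom gave Snai2 an unadjusted p under 0.05, and edgeR gave none of the 10.

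Cdh1 encodes E-cadherin, the adhesion receptor of adherens junctions, and lies on chromosome 8, 106603351 to 106670246 (GRCm38). It measured 139, 180 and 173 CPM in AAV-Control 1 to 3. In AAV-∆mut-p53 the lowest value was 16.8 CPM in tumour 2, the median 290 CPM and the highest 441 CPM in tumour 3. Thus 5 of 6 AAV-∆mut-p53 tumours lay above every control, and the remaining one lay below every control. AAV-Control tumours averaged 164 ± 21.7 CPM (SD, n = 3), and AAV-∆mut-p53 tumours averaged 286 ± 156 CPM (SD, n = 6). As a log2 fold change of AAV-∆mut-p53 over AAV-Control this was 0.80 (95% confidence interval -0.77 to 2.37), which did not pass edgeR's test (FDR = 0.782). Without AAV-∆mut-p53 2 the log2 fold change was 1.06 (SE 0.31) with an unadjusted p of 0.00639 and an FDR of 0.478, again short of the threshold.

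Epcam, a surface adhesion protein of epithelial cells, lies on chromosome 17, 87635979 to 87651129. It measured 523, 722 and 490 CPM in the controls. In AAV-∆mut-p53 it ran from 32.3 CPM in tumour 2 through a median of 555 CPM to 1001 CPM in tumour 1. The groups overlapped on both sides, with 2 AAV-∆mut-p53 tumours above and 2 below every control. Its log2 fold change was -0.03 (interval at 95% confidence -1.58 to 1.52, edgeR FDR = 0.993) and 0.23 without AAV-∆mut-p53 2. Whether the fold changes of Epcam and Cdh1 differ was not tested.

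The 3 claudins are tight junction membrane proteins that seal the space between neighbouring cells. Cldn3 (chromosome 5, 134986214 to 134987472) measured 71.2, 78.2 and 44.3 CPM in controls, and 14.2 CPM in AAV-∆mut-p53 2, a median of 143 CPM and 252 CPM in AAV-∆mut-p53 3. Cldn7 (chromosome 11, 69964779 to 69967885) measured 21.5, 6.29 and 16.2 CPM in controls, and 2.26 CPM in AAV-∆mut-p53 2, a median of 47.4 CPM and 143 CPM in AAV-∆mut-p53 3. For each of these claudins 4 of 6 AAV-∆mut-p53 tumours, numbers 1, 3, 4 and 6, lay above every control. AAV-∆mut-p53 5 held 41.9 CPM of Cldn3 and 17.9 CPM of Cldn7, just below or within the control range. The log2 fold change of Cldn7 was 1.84 (SE 0.96), the largest in absolute value of the 10 genes, with an unadjusted p of 0.0834 and FDR = 0.677 in edgeR. Without AAV-∆mut-p53 2 it was 2.10 (SE 0.66), with an unadjusted p of 0.00976 and FDR = 0.496. For Cldn3 the log2 fold change was 0.97 (SE 0.72, FDR = 0.734) and 1.21 (SE 0.50, FDR = 0.552) without that tumour.

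Cldn4, on chromosome 5 from 134945119 to 134946934 and 39279 bases from Cldn3, was the most variable of the junction genes. It measured 62.8, 1.06 and 19.2 CPM in controls and ran from 3.64 CPM in AAV-∆mut-p53 2 to 202 CPM in AAV-∆mut-p53 6, with a median of 38.0 CPM. The highest tumour held 189 times the lowest, against 26.3 times for Cdh1. AAV-Control 2 held 32 counts of Cldn4 and AAV-Control 1 held 1791. The log2 fold change was 1.40 (SE 1.35, edgeR FDR = 0.802), 2.84 without AAV-Control 1 and 0.78 without AAV-∆mut-p53 6. The range of the 3 controls took in the median of AAV-∆mut-p53.

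**Figure D1:**
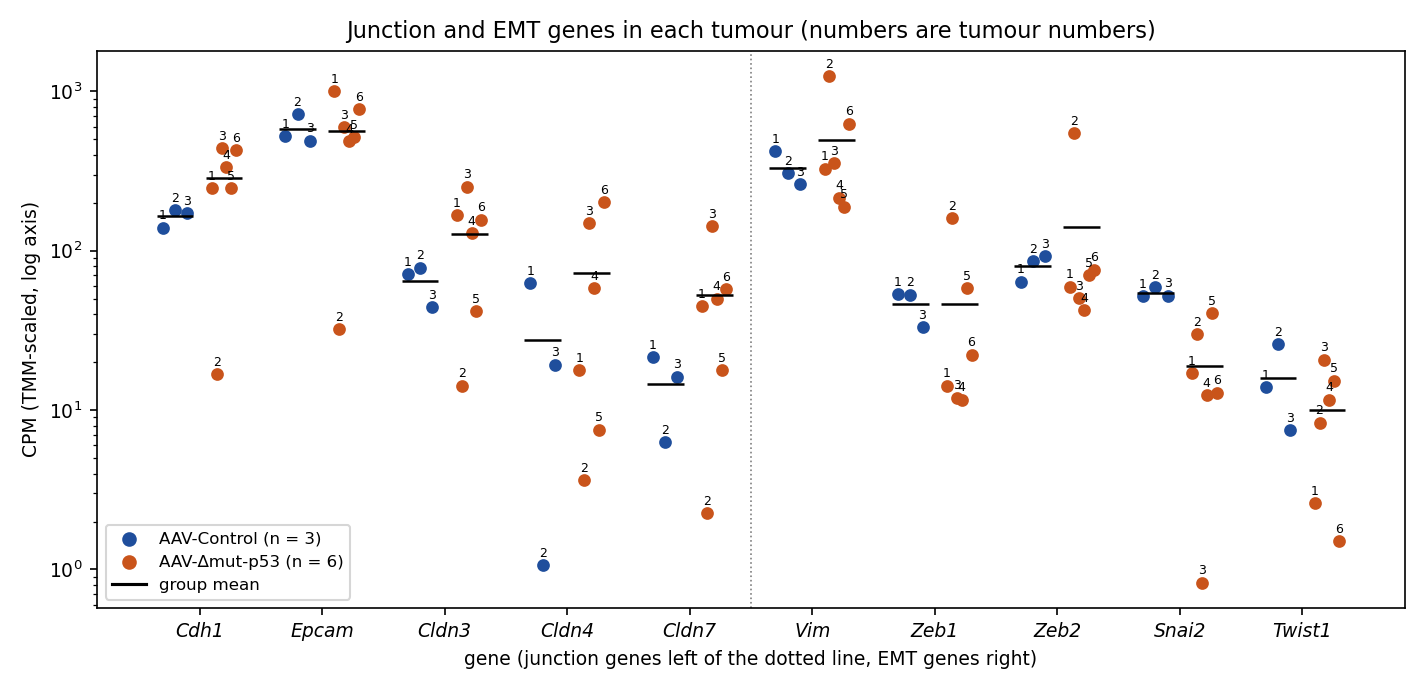
CPM of each gene (log axis) in every tumour, with AAV-Control in blue, AAV-∆mut-p53 in orange and black lines at group means. AAV-∆mut-p53 2 was the lowest AAV-∆mut-p53 tumour for all 5 junction genes and the highest for Vim, Zeb1 and Zeb2, and Snai2 was lower in every AAV-∆mut-p53 tumour than in every control.

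ZEB and Snail proteins bind the E-box CACCTG, which reads as CAGGTG on the opposite strand. The windows from 250 bases before to 50 bases after annotated starts in RefSeq (GRCm38.p6) were searched for both forms. Of the 10 genes 7 had a window, and Cdh1, Zeb1 and Snai2 had none in the table used. All 4 junction genes with a window held at least 1 match, and Vim, Zeb2 and Twist1 held none. Counted by window, 4 of the 11 windows of these 7 genes held at least 1 match. Over all genes 20.2% of 32851 windows held at least 1 match and 2.88% held at least 2. The stretches around the matches are shown for reference, and their part in the levels of these genes was not tested. Matches are in capitals, and each is a description of letters, not a measured binding site. Epcam is shown at chr17:87635780-87635977 (+), Cldn4 at chr5:134946935-134946960 and chr5:134946906-134946935 (both -), Cldn3 at chr5:134986233-134986262 (+) and Cldn7 at chr11:69965312-69965341 and chr11:69965352-69965381 (both +), each 5′ to 3′.
Epcam: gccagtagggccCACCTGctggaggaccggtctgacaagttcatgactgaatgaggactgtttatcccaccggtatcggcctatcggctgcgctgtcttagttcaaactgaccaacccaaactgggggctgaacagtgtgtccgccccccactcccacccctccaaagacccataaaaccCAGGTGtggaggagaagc
Cldn4, first match: ctttaactgcagCACCTGtggccgcc
Cldn4, other match: cctttcttgttgCAGGTGcaggcaggaaag
Cldn3: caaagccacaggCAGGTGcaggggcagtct
Cldn7, first match: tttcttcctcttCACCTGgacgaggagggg
Cldn7, other match: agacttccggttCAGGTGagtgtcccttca

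The Epcam matches begin 187 and 19 bases before the start, and those of Cldn4 begin 14 bases before it and at base 12 after it. Both Cldn7 matches lie in the window of a downstream annotated start, 97 and 57 bases before it, and its other window holds none.

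Among the EMT genes Snai2 showed the clearest separation. Snai2 encodes SLUG, a Snail family repressor that is also expressed in basal mammary epithelium, and lies on chromosome 16, 14705852 to 14709385. It measured 51.7, 59.0 and 52.1 CPM in the controls. In AAV-∆mut-p53 the lowest value was 0.83 CPM (17 counts) in tumour 3, the median 14.97 CPM and the highest 40.4 CPM in tumour 5. Every AAV-∆mut-p53 tumour lay below every control, as was so for 1.59% of the 19606 genes tested. AAV-Control averaged 54.3 ± 4.09 CPM (SD, n = 3) against 18.9 ± 14.1 CPM (SD, n = 6) in AAV-∆mut-p53, a log2 fold change of -1.52 (95% confidence interval -3.16 to 0.12). The unadjusted p was 0.0662 in edgeR, with FDR = 0.677, so the difference did not pass the threshold. On log2(CPM + 1), the exact permutation of the group labels in all 84 ways gave a 2-sided p = 0.0476, and no p under 0.0119 can be reached. The same exact test gave p = 0.0714 with a pseudocount of 0.1, 0.0595 with library size scaling alone and 0.0536 with AAV-∆mut-p53 4 and 5 summed. With 1 tumour left out it ran from 0.0357 to 0.143 (exact). Leaving out AAV-∆mut-p53 2 gave a log2 fold change of -1.69, with an exact permutation p of 0.0714.

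Of 9 basal epithelial markers 5 had higher and 4 had lower means in AAV-∆mut-p53 (median log2 fold change 0.11). Trp63, the basal regulator p63, measured 309 to 598 CPM in controls and 3.46 to 211 CPM in AAV-∆mut-p53, again without overlap (log2 fold change -2.0, edgeR FDR = 0.677). It was the 1 marker of the 9 whose groups did not overlap in that direction, as was so for 1.59% of all genes tested. Krt5, Mylk and Lama3 were the others with lower means. Krt14 had a log2 fold change of 3.41 (SE 1.48, FDR = 0.677), and Krt15, Krt17, Oxtr and Cnn1 also had higher means. The sum of the 9 markers was 913 to 1730 CPM in controls and 94.9 to 1646 CPM in AAV-∆mut-p53, lowest in AAV-∆mut-p53 3, the tumour with the least Snai2. In AAV-∆mut-p53 4 and 6, with the next lowest Snai2 (12.4 and 12.9 CPM), the sum was 1646 and 1600 CPM, within the control range. Few genes carried these sums. In AAV-∆mut-p53 6 Krt14 held 858 CPM, while Krt5 was at 2.64 CPM against 180 to 392 CPM in controls. In AAV-∆mut-p53 4 Cnn1 and Krt14 held 436 and 368 CPM, with Krt5 at 203 CPM. Trp63 lay below every control in both. The part of the basal markers in the Snai2 result was not tested. In bulk tissue, fewer cells of a type and less RNA per cell cannot be told apart.

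Zeb1 and Zeb2 encode zinc finger repressors of E-cadherin and are also expressed in stromal and immune cells. Zeb1 (chromosome 18, 5591860 to 5775467) measured 53.3, 53.1 and 33.1 CPM in controls. In AAV-∆mut-p53 it was 11.6 CPM in tumour 4, 18.3 CPM at the median and 160 CPM in tumour 2. AAV-∆mut-p53 1, 3, 4 and 6 lay below every control, and tumours 2 and 5 lay above every control. The group means of 46.5 ± 11.6 CPM (SD, n = 3) for AAV-Control and 46.4 ± 58.5 CPM (SD, n = 6) for AAV-∆mut-p53 were alike, and the log2 fold change was 0.00 to 2 decimals, with a sign that depended on the scaling. Without AAV-∆mut-p53 2 it was -0.97 (SE 0.54, edgeR unadjusted p = 0.104, FDR = 0.627).

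Zeb2 (chromosome 2, 44983632 to 45117395) measured 63.8, 85.6 and 92.1 CPM in controls. AAV-∆mut-p53 2 held 544 CPM, while the AAV-∆mut-p53 tumours had a lowest value of 42.4 and a median of 64.9 CPM. The log2 fold change was 0.80 (SE 0.83, edgeR FDR = 0.816) with all tumours and -0.42 (SE 0.27, FDR = 0.665) without AAV-∆mut-p53 2, so that tumour set its sign. Zeb2 shares 653 bases of exon with Zeb2os, an antisense gene that held 207 counts over the 9 tumours.

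Vim encodes vimentin, the intermediate filament of mesenchymal cells, and lies on chromosome 2, 13573927 to 13582826. It measured 421, 307 and 262 CPM in controls and ran from 189 CPM in AAV-∆mut-p53 5 through a median of 341 CPM to 1246 CPM in AAV-∆mut-p53 2. AAV-∆mut-p53 6, with 626 CPM, was the next highest, although it also held the second highest Cdh1. The groups overlapped, and the log2 fold change was 0.58 (SE 0.59, edgeR FDR = 0.811) with all tumours and 0.05 without AAV-∆mut-p53 2. Twist1, a helix-loop-helix EMT factor on chromosome 12 from 33957671 to 33959829, measured 13.99, 25.99 and 7.47 CPM in controls. In AAV-∆mut-p53 it ran from 1.504 CPM in tumour 6 through a median of 9.99 CPM to 20.8 CPM in tumour 3. Its groups overlapped as well, with a log2 fold change of -0.66 (SE 0.74, FDR = 0.828) that was -0.09 without AAV-Control 2.

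**Figure D2:**
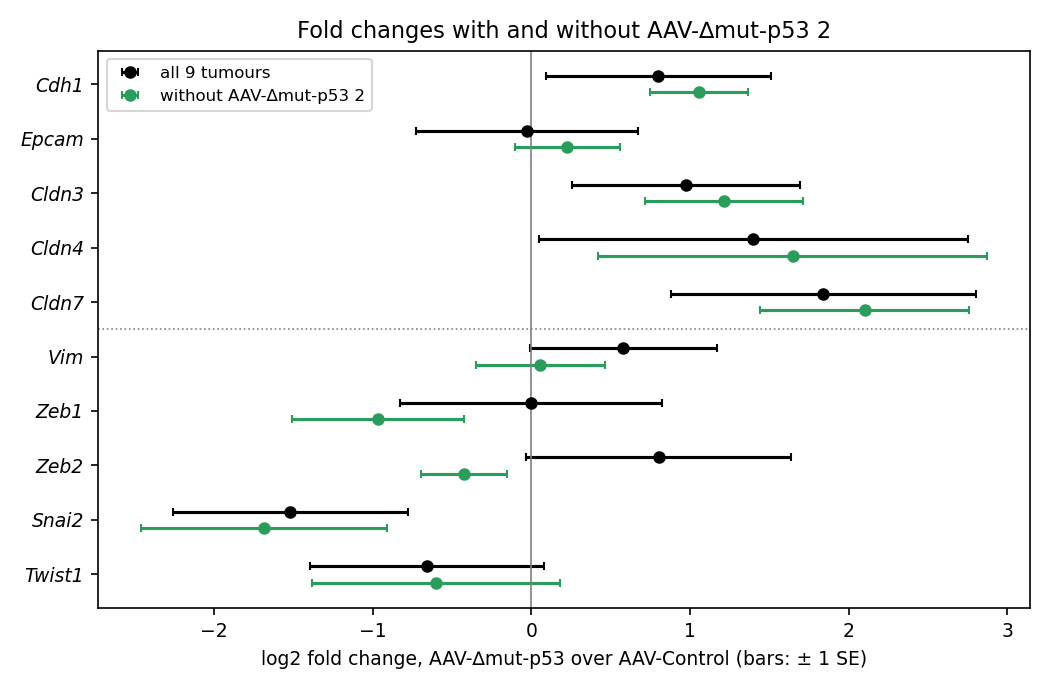
Log2 fold change of AAV-∆mut-p53 over AAV-Control for each gene (points) with 1 SE to each side (bars), from all 9 tumours in black and without AAV-∆mut-p53 2 in green. Cdh1 moved from 0.80 to 1.06 and its SE from 0.71 to 0.31 when that tumour was left out, and Zeb1 moved from 0.00 to -0.97.

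AAV-∆mut-p53 2 was the lowest of its group for all 5 junction genes and the highest for Vim, Zeb1 and Zeb2. Its removal must therefore raise the fold changes of the former and lower those of the latter, so the values below are a description. Leaving out AAV-∆mut-p53 2, the 5 junction genes all had positive and 4 of the 5 EMT genes negative log2 fold changes, with Vim at 0.05. Higher means were found for 53.3% of all genes in that fit. Of the 10 genes 3 (Cdh1, Cldn3 and Cldn7) had an unadjusted p under 0.05 in the higher direction there, which 4.57% of 19200 genes had (4.22% in the lower direction), and 0 of the 10 passed the FDR threshold. Cdh1 was then higher in 5 of 5 tumours than in every control, as were 2.66% of genes. The exact 2-sided permutation test of Cdh1 gave p = 0.893 with all tumours and p = 0.0357 without AAV-∆mut-p53 2, where 56 assignments allow no p under 0.0179.

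Levels of different genes were compared per kilobase of exon. In AAV-Control Epcam was highest at 263 ± 57.2 CPM per kilobase (SD, n = 3), followed by Vim at 69.5 ± 17.2, Cldn3 at 51.3 ± 14.2 and Cdh1 at 35.9 ± 4.75. Vim, Cldn3 and Cdh1 overlapped with their neighbours in that order. In AAV-∆mut-p53 the same 4 genes led, with Epcam at 258 ± 148, Vim at 104 ± 84.4, Cldn3 at 101 ± 69.4 and Cdh1 at 62.5 ± 34.2 CPM per kilobase (SD, n = 6). The place of Vim rested on AAV-∆mut-p53 2. Without that tumour the means were 307 for Epcam, 119 for Cldn3, 74.2 for Cdh1 and 72.2 CPM per kilobase for Vim (n = 5). The order of the regulators differed between tumours. Snai2 had the highest level per kilobase of the 4 transcription factors in all 3 controls, at 25.6 to 29.2 CPM per kilobase. It led in AAV-∆mut-p53 1, 5 and 6 as well, at 6.38 to 20.01 CPM per kilobase, while Zeb2 led in tumour 2 at 27.3 and Twist1 led in tumours 3 and 4 at 12.8 and 7.15. Zeb1 (4.53 ± 1.13) and Zeb2 (4.04 ± 0.74 CPM per kilobase) did not differ beyond their spread in controls (SD, n = 3). The exon length joins all annotated transcripts, so the value of Zeb2, at 19942 bases of exon, is a low estimate.

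The balance within each tumour was described by the mean log2(CPM + 1) of the 5 junction genes minus that of the 4 transcription factors. It was 1.21, -0.27 and 0.95 in AAV-Control 1 to 3. It was 3.05, -2.74, 4.41, 3.05, 0.59 and 3.85 in AAV-∆mut-p53 1 to 6. AAV-∆mut-p53 1, 3, 4 and 6 exceeded every control by this measure, tumour 5 lay within the control range, and tumour 2 lay below it. AAV-∆mut-p53 1 and 2, with the lowest Trp53 RNA (13.1 and 21.9 CPM), thus lay on opposite sides of the control range. With Trp53 RNA of 37.8 to 41.4 CPM, AAV-∆mut-p53 3, 4 and 6 lay above that range and tumour 5 within it. The part of Trp53 RNA in this balance was not tested. The ratio of Cdh1 to Vim CPM was 0.332, 0.588 and 0.659 in controls. It was 0.0135 in AAV-∆mut-p53 2 and between 0.685 and 1.55 in the other 5 AAV-∆mut-p53 tumours.

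AAV-∆mut-p53 4 and 5, the pair with 1 title number, received the same label and still lay apart on this axis. AAV-∆mut-p53 4 held 11.6 CPM of Zeb1, 12.4 CPM of Snai2, 129 CPM of Cldn3 and 49.95 CPM of Cldn7. AAV-∆mut-p53 5 held 58.1, 40.4, 41.9 and 17.9 CPM of the same genes. The fibroblast markers summed to 992 CPM in AAV-∆mut-p53 4 and 3248 CPM in AAV-∆mut-p53 5, and their part in the difference was not tested.

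Next, the 10 genes were compared in all 45 pairs across the 9 tumours, by Pearson's r and Spearman's rho of log2(CPM + 1). All 10 pairs of junction genes had a positive r (median 0.815), and all 25 pairs of a junction gene with an EMT gene had a negative r (median -0.662). After Benjamini-Hochberg adjustment over the 45 pairs, 12 passed 0.05 by exact permutation of r, and 0 passed by rho, whose smallest adjusted p was 0.0744. The 12 were 5 pairs of junction genes, 6 pairs of a junction gene with Zeb1 or Zeb2, and Zeb1 with Zeb2. No pair with Vim, Snai2 or Twist1 was among them. Points share the 9 libraries, their scaling and AAV-∆mut-p53 2, and r over both groups also holds any difference between the groups.

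Cldn7 against Zeb1 gave r = -0.909 and rho = -0.783 (exact permutation p = 0.00102 and 0.0172, adjusted p = 0.0135 and 0.0861, n = 9). It was r = -0.797 without AAV-∆mut-p53 2 and 3, the tumours farthest from the median of Cldn7. Within the 6 AAV-∆mut-p53 tumours r was -0.938. The 3 controls are too few for a value of their own. Cldn3 against Zeb1 gave r = -0.912 and rho = -0.850 (exact permutation p = 0.00115 and 0.00607, adjusted p = 0.0135 and 0.0744, n = 9), and r = -0.775 without the same 2 tumours. In these 2 pairs high claudin went with low Zeb1 also among the tumours other than AAV-∆mut-p53 2, where r was -0.835 and -0.827 over 8 tumours, with adjusted exact permutation p = 0.0833 and 0.0971.

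Cdh1 and its known repressors were related less evenly. Cdh1 against Zeb2 gave r = -0.929 and rho = -0.667 (exact permutation p = 0.0115 and 0.0589, adjusted p = 0.0431 and 0.187, n = 9). It was -0.367 without AAV-∆mut-p53 2 and 3, so this relation rests on those tumours. Cdh1 against Zeb1 gave r = -0.842 and rho = -0.800 (exact permutation p = 0.00282 and 0.0138, adjusted p = 0.0181 and 0.0861, n = 9), and r = -0.638 without the same 2. Cdh1 against Epcam gave r = 0.905 and rho = 0.483 (exact permutation p = 0.0345 and 0.194, adjusted p = 0.104 and 0.379, n = 9), and r = 0.280 without them, and therefore rests on them too. Cdh1 against Vim gave r = -0.666 with all tumours and 0.214 without AAV-∆mut-p53 2, a change of sign.

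Snai2 gave another pattern: AAV-∆mut-p53 2, lowest of its group for the junction genes, held 30.01 CPM of Snai2, between the lowest and highest of its group. Cdh1 against Snai2 gave r = -0.448 and rho = -0.750 (exact permutation p = 0.170 and 0.0255, adjusted p = 0.274 and 0.115, n = 9). Without AAV-∆mut-p53 2 it was r = -0.847 (adjusted exact permutation p = 0.0491, n = 8). Cldn7 against Snai2 gave r = -0.764 and rho = -0.800 (exact permutation p = 0.0152 and 0.0138, adjusted p = 0.0527 and 0.0861, n = 9). Without AAV-∆mut-p53 2 it was r = -0.925 (adjusted exact permutation p = 0.0123, n = 8). These were the 2 pairs that passed without that tumour, and neither was among the 12 that passed with it. Snai2 was lower in every AAV-∆mut-p53 tumour than in every control, so these r also hold the group difference. Within the 6 AAV-∆mut-p53 tumours, tumour 2 included, r with Snai2 was -0.491 for Cdh1 and -0.755 for Cldn7 (exact permutation p = 0.254 and 0.115). Without AAV-∆mut-p53 2, 9 of 10 pairs of junction genes were positive. Of the 25 pairs of a junction with an EMT gene 19 were negative. Of the 6 positive ones 5 were with Vim and 1 was Epcam with Zeb2.

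**Figure D3:**
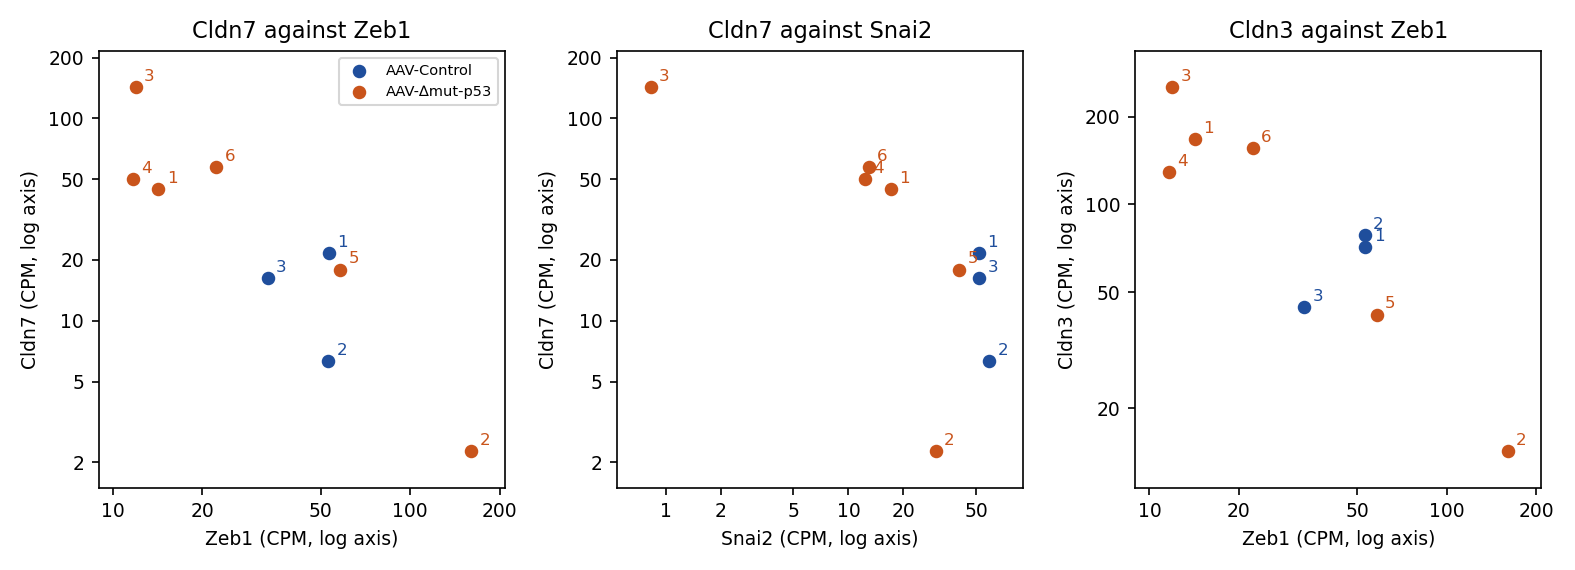
CPM of Cldn7 or Cldn3 against Zeb1 or Snai2 in each tumour (log axes, numbers are tumour numbers, AAV-Control in blue and AAV-∆mut-p53 in orange). AAV-∆mut-p53 1, 3, 4 and 6 lie at high claudin and low Zeb1, controls lie with AAV-∆mut-p53 5 in the middle, and AAV-∆mut-p53 2 lies at 2.26 CPM of Cldn7 and 160 CPM of Zeb1.

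**Figure D4:**
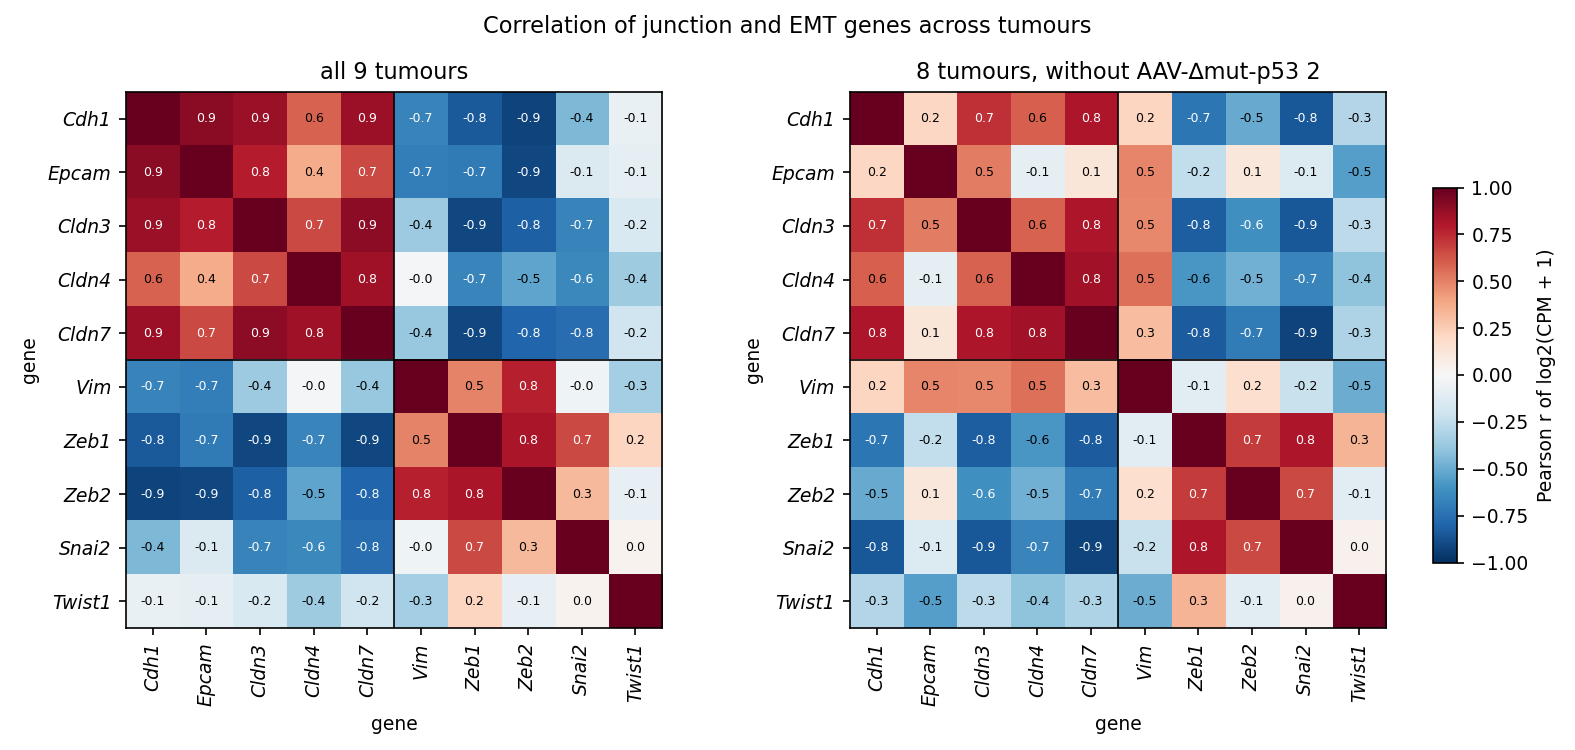
Pearson r of log2(CPM + 1) for every pair of genes, over all 9 tumours (left) and without AAV-∆mut-p53 2 (right), with red for positive and blue for negative values and lines between junction and EMT genes. Cdh1 and Epcam go from 0.905 to 0.205, while Cldn7 and Zeb1 stay at -0.909 and -0.835.

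The wider families around these genes were described by counts and medians, and in all 15 lists 0 genes passed FDR 0.05 in edgeR. All 11 epithelial surface genes, such as Spint1 and Muc1, had a positive log2 fold change (median 0.97), against 55.6% of all genes and a median of 0.09 over them, and 0 of the 11 had an unadjusted p under 0.05. With AAV-∆mut-p53 2 left out, 5 of the 11 had an unadjusted p under 0.05 in the higher direction (4.57% of all genes) and 2 did not overlap the controls (2.66% of all genes). Their summed level was 914 to 1144 CPM in controls and 1046 to 2183 CPM in AAV-∆mut-p53 other than tumour 2, where it was 247 CPM. Of 12 epithelial identity regulators 9 were higher and 3 lower (median 0.73), and 12 of 12 were higher without AAV-∆mut-p53 2 (53.3% of all genes). Among them Ehf, an ETS family factor of epithelia, measured 69.0, 229 and 356 CPM in controls and 42.9 to 1556 CPM in AAV-∆mut-p53 (log2 fold change 1.84, SE 0.94, FDR = 0.677). Elf3, another epithelial ETS factor, had a log2 fold change of 1.44 (SE 0.61, FDR = 0.677). Of 15 tight junction partners 11 were higher and 4 lower (median 0.51). Tjp3, the scaffold protein ZO-3, measured 20.03 to 27.1 CPM in controls, 5.02 CPM in AAV-∆mut-p53 2 and 40.9 to 111 CPM in the other AAV-∆mut-p53 tumours (log2 fold change 1.31, SE 0.69, FDR = 0.677).

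Of 9 adherens junction partners 7 were higher and 2 lower (median 0.20), led by Nectin4 with a log2 fold change of 1.03 (SE 0.62, FDR = 0.692). Desmosomes are the junctions anchored to keratin. Of 9 desmosome genes 4 were higher and 5 were lower (median -0.62), and Dsp, the plaque protein desmoplakin, had a log2 fold change of -1.07 (SE 0.56, FDR = 0.677). In these 2 lists 0 genes had an unadjusted p under 0.05 with all tumours. When AAV-∆mut-p53 2 was left out, 1 adherens junction partner (Nectin4) and 3 desmosome genes (Pkp2, Ppl and Evpl) had one, all higher, against 4.57% of all genes.

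Of 12 other EMT transcription factors tested 9 were higher and 3 lower, with 6 and 5 without AAV-∆mut-p53 2. Snai1, the Snail founder, stayed low at 0.99 to 3.10 CPM in controls and 1.08 to 4.34 CPM in AAV-∆mut-p53. Foxq1 had a log2 fold change of 2.67 (SE 1.17, FDR = 0.677) at a control mean of 1.23 CPM. Of 13 mesenchymal effectors 8 were higher and 5 lower with all tumours, and 3 higher and 10 lower without AAV-∆mut-p53 2. Fn1, fibronectin, showed this dependence, with 15589 CPM in AAV-∆mut-p53 2 and a log2 fold change of 2.66 that became 0.78 without it. Tnc, the matrix protein tenascin C, did not: it measured 44.8 to 109 CPM in controls and 111 to 1007 CPM in AAV-∆mut-p53, without overlap (as in 1.47% of genes), with a log2 fold change of 2.51 (SE 0.73, FDR = 0.677). Cdh2, N-cadherin, measured 33.1 to 59.5 CPM in controls and 7.74 to 62.3 CPM in AAV-∆mut-p53.

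TGF-beta signalling, a common inducer of EMT, was split, with 7 of 12 genes higher and 5 lower (median 0.41). The ligand Tgfb3 had a log2 fold change of 1.61 (SE 0.58), the co-receptor Tgfbr3 one of -1.13 (SE 0.49) and the signal transducer Smad3 one of -0.83 (SE 0.34), each with edgeR FDR = 0.677. These were the 3 genes of the list with an unadjusted p under 0.05, as 7.07% of all genes had.

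Markers of other cell types differed between the tumours as well. Summed fibroblast markers (10 genes) were 825 to 7384 CPM in controls and 868 to 17235 CPM in AAV-∆mut-p53, highest in tumour 2. Without tumour 2 all 10 fibroblast markers and all 8 endothelial markers had lower means in AAV-∆mut-p53, where 53.3% of all genes had higher ones. Of these markers 4 of fibroblasts and 3 of endothelium had an unadjusted edgeR p under 0.05 (4.22% of all genes in that direction), and 0 passed FDR 0.05. Summed endothelial markers were 257 to 589 CPM in controls and 135 to 370 CPM in AAV-∆mut-p53. Cdh5, the endothelial cadherin, had a log2 fold change of -1.31 (SE 0.37, FDR = 0.677). Leukocyte markers ranged from 211 to 319 CPM and from 155 to 1362 CPM, again highest in AAV-∆mut-p53 2. All 8 of those tested had a higher mean, as 55.6% of all genes had. Luminal markers ranged from 879 to 2481 CPM in controls and from 219 CPM in AAV-∆mut-p53 2 to 3939 CPM in AAV-∆mut-p53 6. Adipocyte markers were 78.4 to 165 CPM in controls and 25.8 to 523 CPM in AAV-∆mut-p53, highest in tumour 2. Of these markers Cd3e, Lep, Ckm and Tnnc2 were at 0 in at least 1 tumour. In AAV-∆mut-p53 2, low junction genes and high Vim, Zeb1 and Zeb2 thus came with the highest muscle, fibroblast, leukocyte and adipocyte sums and the lowest luminal sum. The part of these cell types in the values of Vim, Zeb1, Zeb2 and the junction genes was not tested.

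**Figure D5:**
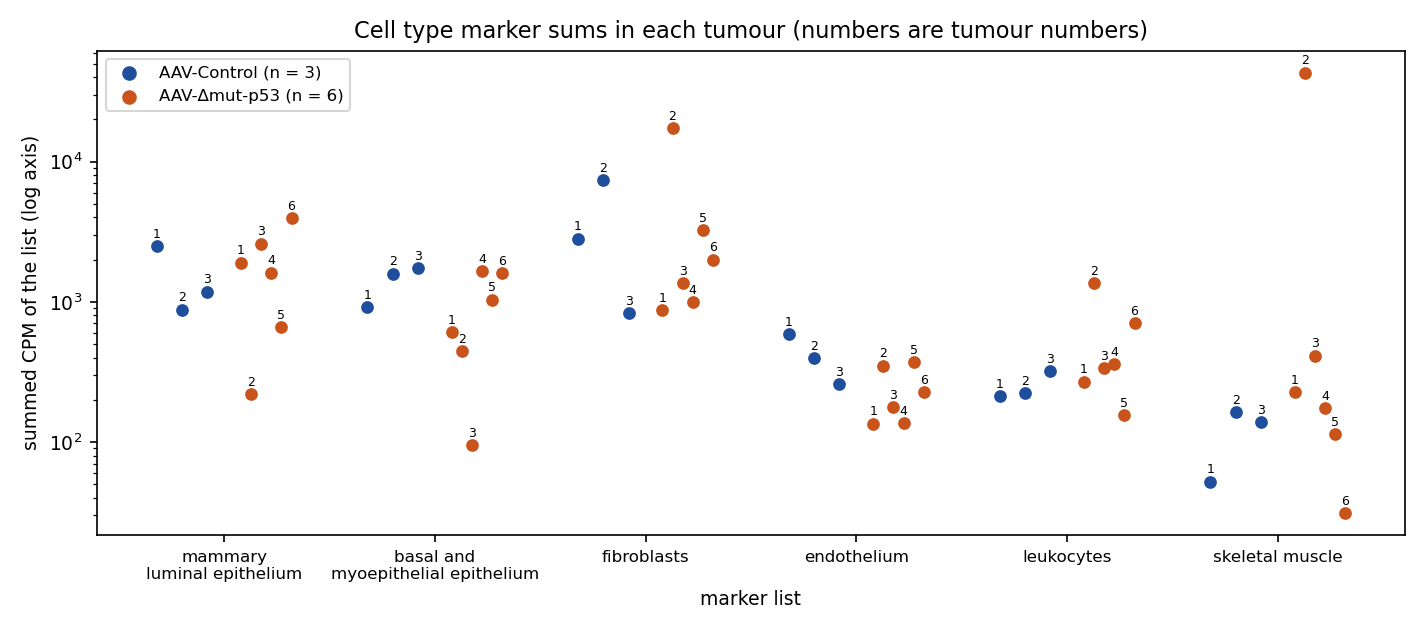
Summed CPM of 6 cell type marker lists (log axis) in each tumour, AAV-Control in blue and AAV-∆mut-p53 in orange, numbers being tumour numbers. AAV-∆mut-p53 2 has the highest fibroblast (17235 CPM), leukocyte (1362 CPM) and muscle (43056 CPM) sums and the lowest luminal sum (219 CPM).

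The genes most like Cdh1 and Zeb1 were sought among 11633 genes that averaged 5 CPM or more, by Pearson r of log2(CPM + 1) over the 9 tumours, as a description. Among the nearest to Cdh1 were Shroom3 (r = 0.975), Lad1, Plpp2 and Jup (r = 0.961). Jup encodes plakoglobin, a catenin shared by adherens junctions and desmosomes, and Lad1 encodes ladinin. Without AAV-∆mut-p53 2 the r of these 4 with Cdh1 lay between 0.832 and 0.925. The 5 nearest to Zeb1 were Eml1 (r = 0.977), Tns1, Galnt15, Ptprb and Pla2r1 (r = 0.956), and these kept an r of 0.918 to 0.962 without that tumour. Ptprb encodes a receptor phosphatase of endothelium.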

How the data were processed

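Stranded total RNA libraries were made from whole tumours, per the labels' protocols. The authors deposited raw read counts per Ensembl gene in 1 table. STAR 2.6.0b, DESeq2 and GRCm38 are named, with no role or order, per the submitters' processing notes. The counter, its strand setting and the annotation release were not found in the labels or headers, so reads of overlapping antisense genes may be lost or shared: Tnnc2 was at 0.05 CPM in AAV-∆mut-p53 2, where Ttn was at 25386 CPM. Positions and exon lengths come from GENCODE M21 on GRCm38.

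Counts were scaled with TMM factors and tested over 19606 genes kept by filterByExpr (minimum count 10) by the 2-sided quasi-likelihood test of edgeR 4.0.16 (R 4.3.3), with Benjamini-Hochberg adjustment and no covariate. The fitted fold change compares group means of counts, while permutation tests compare means of log2(CPM + 1). DESeq2 1.42.0 and voom in limma 3.58.1, other scalings and filters, each tumour left out and AAV-∆mut-p53 4 and 5 summed were alternatives. The 10 genes, the 15 gene lists and the tests were chosen with earlier results of these data known. Genes named from a list were the 3 with the smallest p, the highest marker, and Trp53. Some genes that this rule names are not reported here. Others (such as Snai1, Cdh2 and Evpl) were chosen after their values were seen. No 2 libraries of a group agreed within sampling noise (chi-square per degree of freedom at least 171).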

Additional observations from a re-analysis of the deposited data

Results flagged for a closer look

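Zeb1 in AAV-∆mut-p53 2, at 160 CPM, and Zeb2 in the same tumour, at 544 CPM, each lay far from the other 5 AAV-∆mut-p53 tumours. The gap to the nearest tumour was 0.687 of the whole range for Zeb1 and 0.933 for Zeb2, above the limit of 0.625 that Dixon's test sets for 6 samples at the 95% level. Chance alone marks about 5% of groups in this way. The same tumour held the highest Vim and the lowest Cdh1, Epcam, Cldn3, Cldn4 and Cldn7 of its group, which did not exceed that limit on CPM. On CPM a low value has less room to stand apart than a high one. The test was not run on log2 values, so it does not settle whether the junction genes stood apart in this tumour. Skeletal muscle markers summed to 43056 CPM and fibroblast markers to 17235 CPM in AAV-∆mut-p53 2, and their part in the values was not tested.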

How the results depend on the processing

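The count of genes past FDR 0.05 was 0 in edgeR under every other scaling and filter and with each tumour left out, 0 in voom, and 104 in DESeq2. The count of junction and EMT genes past it was 0 in all 18 alternatives. Some log2 fold changes changed sign. Zeb1, at 0.00 to 2 decimals, was 0.018 with DESeq2's size factors in edgeR and in DESeq2, 0.086 with a minimum count of 50 and 0.084 with AAV-∆mut-p53 4 and 5 summed. Voom with sample weights turned Vim from 0.58 to -0.15 and Zeb2 from 0.80 to -0.094, and moved Zeb1 to -1.08. The cause was not tested. Leaving out 1 tumour moved log2 fold changes between -0.26 and 0.23 for Epcam, -0.97 and 0.20 for Zeb1, and -0.42 and 0.99 for Zeb2. It moved differences of mean log2(CPM + 1) between -0.78 and 0.20 for Epcam, -0.11 and 2.36 for Cldn4, -0.044 and 0.50 for Vim, and -0.43 and 0.29 for Zeb2, and r of Cdh1 and Vim between -0.87 and 0.21. The number of pairs past adjusted p 0.05 ran from 2, without AAV-∆mut-p53 2, to 12. Leaving out AAV-∆mut-p53 2, added after seeing the data, moved the number of higher genes by over 1.5 times in 4 of 15 lists. No paired analysis was possible because the labels give the groups no shared replicate numbers. With 3 controls, the confidence intervals leave room for differences of more than 1 log2 unit in either direction for Epcam and Zeb1.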

Other observations

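The ratio of Epcam to Cdh1 CPM, a pair of epithelial adhesion genes, was 3.75, 4.003 and 2.84 in AAV-Control 1 to 3. It was 4.04 in AAV-∆mut-p53 1 and 1.93, 1.35, 1.46, 2.09 and 1.80 in AAV-∆mut-p53 2 to 6, so 5 of 6 lay below every control, including AAV-∆mut-p53 2, in which both genes were low. The ratio was noticed after the values were seen and was not tested.

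Among the claudins, 33 genes were in the table and 14 were tested. Cldn3, Cldn4 and Cldn7 had the highest mean level per kilobase of those tested. Cldn3 made up 33.1% to 61.6% of the summed claudin level per kilobase in each tumour. Of the 14, 8 had a higher and 6 a lower mean in AAV-∆mut-p53, where 55.6% of all genes had a higher one, and for 2 the unadjusted edgeR p was under 0.05 (7.07% of all genes), both lower (3.26% of all genes): Cldn5, a claudin of endothelium (log2 fold change -2.06, FDR = 0.677), and Cldn10 (log2 fold change -2.22).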
